A study of Mus musculus with 4 samples.

Results

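The genes described here encode the enzymes, regulators and a carrier protein of cholesterol and fatty acid synthesis. They were listed by symbol, 32 genes in all, and 31 of them were named by a probe set of the array annotation, among 18194 genes in all. Acat2, a cytosolic thiolase, had no probe set of its own in the annotation used and is not analysed here. RNA came from mouse ES cells of the Runx1(Venus/+) line, derived from CCE cells, in which the Venus reporter sits at the proximal promoter of 1 Runx1 allele, so that all populations are heterozygous for Runx1. The cells were differentiated on OP9 stromal cells and sorted on day 6. Population 1 was Runx1-/VE-cadherin+/Flk1+, population 2 Runx1+/VE-cadherin+/CD41-, population 3 Runx1+/VE-cadherin+/CD41+ and population 4 Runx1+/VE-cadherin-/CD41+. Each was measured on 1 Affymetrix array, so no test between populations was possible and every difference is without a replicate check.

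Cells build cholesterol from acetyl-CoA through mevalonate and squalene, and fatty acids from acetyl-CoA through malonyl-CoA. The transcription factors SREBP1 and SREBP2, encoded by Srebf1 and Srebf2, induce the enzymes of both routes. When sterols are low, the escort protein SCAP carries the SREBP precursors out of the endoplasmic reticulum to be cleaved, whereas INSIG proteins hold them back when sterols are high. Dividing cells need both lipids for new membranes.

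The promoters of these genes are known for sterol regulatory elements bound by SREBP beside sites of the cofactors NF-Y and Sp1. In the RefSeq promoter table of assembly GRCm38.p6, which covers 250 bases before to 50 bases after each start, 32 promoters of 24 measured members were found. Fdps, Fdft1, Sqle, Scd1, Scd2, Fads1 and Stard4 had no entry. On either strand, the element TCACNCCAC occurred in 1 of these promoters, that of Hmgcs1 (3.12%), against 1.24% of all 32851 promoters in the table. The NF-Y letters CCAAT occurred in 21 member promoters (65.6%), against 37.4% of all promoters and 37.7% of those of genes with a signal above 100. The Sp1 letters GGGCGG occurred in 24 (75%), against 35.7% of all promoters and 65% of those of genes above 100. None of the 3 motifs contains another. A match describes the letters and is not evidence of binding.

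The following windows of 30 bases are shown because they hold the Hmgcs1 sterol element and, in the 4 genes at least 2-fold above population 1 in population 2, the CCAAT match nearest to the start. Capitals mark the match, and ATTGG is CCAAT read on the other strand. All lie on the plus strand before the start, at chr13:119690204-119690233 for Hmgcs1, chr5:114444239-114444268 for Mvk, chr7:143830153-143830182 for Dhcr7, chr10:76531531-76531560 for Lss and chr13:8885576-8885605 for Idi1 (GRCm38.p6).
Hmgcs1: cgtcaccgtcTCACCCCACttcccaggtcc
Mvk: tagctccagctctctgATTGGcctcaggaa
Dhcr7: aatccacttccgATTGGtcgtctgtgacct
Lss: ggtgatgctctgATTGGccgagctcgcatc
Idi1: catggtccaaggtgccATTGGctggcgacc
The Hmgcs1 element begins 137 bases before the start. The ATTGG of Lss begins 62, that of Dhcr7 49, and those of Mvk and Idi1 14 bases before the start.

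The measurements are signals of probe sets in linear intensity units, and where a gene had several probe sets the brightest on average stood for it. Signals differ between probe sets for reasons other than transcript level, so genes are compared with themselves across populations and not with each other. The arrays held 8097 to 8666 genes with a signal above 100, and 9468 genes exceeded it in at least 1 population. All 31 measured members exceeded 100 in every population, with signals from 185 to 11325.5. Runx1 had signals of 55.3, 358, 1297 and 2440.2 along populations 1 to 4, while VE-cadherin (Cdh5) had 5683, 3946, 4849 and 40.9, in the order of the gates. Itga2b, encoding CD41, had a signal of 1135 in the CD41- population 2 against 2418 in population 3. For all 9468 genes taken as background, the log2 ratio of signals had a median of 0.00 from population 1 to 2, 0.22 from 2 to 3, 0.06 from 3 to 4 and 0.36 from 1 to 4, which is the background for each value of the members. For the 7104 genes above 100 in all populations, as the members were, these medians were 0.09, 0.26, 0.09 and 0.45. In sorted bulk RNA, fewer cells of a kind and less RNA per cell cannot be told apart.

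Genes of the mevalonate pathway were higher in population 2 than in population 1 and nearly level between populations 2 and 3. Over the 6 measured genes the median log2 ratio was 0.88 for population 2 over 1, 0.00 for 3 over 2 and 0.18 for 4 over 3. Hmgcs1, which condenses acetoacetyl-CoA and acetyl-CoA, had signals of 4650.5, 7195, 7097 and 6741 in populations 1 to 4. Mvk, the mevalonate kinase, had 185, 376, 375 and 518. Pmvk, the next kinase, had 339, 665, 718 and 757. Population 1 was thus lowest for each of these 3 genes, and populations 2 and 3 lay within 1.08-fold of each other. Mvd, the decarboxylase that yields isopentenyl diphosphate, had signals of 546, 917, 1179 and 1281. Idi1, the isomerase of that product, had 1326, 2897, 2741 and 5095 so that population 4 exceeded population 1 by 3.84-fold, the most of any member. Fdps, which joins the units to farnesyl diphosphate, had 3359, 5805, 5864 and 6974. All 6 were higher in population 2 than in population 1, by 1.55-fold for Hmgcs1 to 2.19-fold for Idi1. From population 1 to 4, 5 of the 6 were at least 2-fold higher, where 22.4% of all genes were, and Hmgcs1 was 1.45-fold higher. After centring each array on its median, Mvk and Idi1 stayed at least 2-fold higher, where 14.4% of all genes were. Pmvk, Mvd and Fdps then had log2 ratios of 0.87, 0.93 and 0.76.

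Genes of the branch from squalene to cholesterol were also higher in population 2 than in 1, with a smaller median than the mevalonate genes at that step. Over 11 genes the median log2 ratio was 0.61 for population 2 over 1, 0.10 for 3 over 2 and 0.31 for 4 over 3. Fdft1, squalene synthase, had signals of 1872, 2858, 2749 and 4536. Sqle, the squalene epoxidase, had 1734, 2128, 2407 and 2813. Lss, which closes the rings to lanosterol, had 512, 1132, 1066 and 1569. Of these 3, Lss was 2.21-fold higher in population 2 than in 1, the highest ratio of any member at this step, and Sqle was 1.23-fold higher there. Cyp51, the lanosterol demethylase, had signals of 1112, 1963, 1955 and 1594, highest in population 2. Tm7sf2, a sterol reductase, had 397, 581, 1039.5 and 685, highest in population 3. Msmo1, the methylsterol oxidase, had 1356, 2056, 2326 and 3267, higher at every step. By the probe sets used, the profiles of these enzymes therefore parted after population 2. For Cyp51 another probe set had 500, 961, 976 and 1345, highest in population 4, so its part in this depended on the probe set.

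Nsdhl, a dehydrogenase in the removal of sterol methyl groups, had signals of 636, 876, 1061 and 1317. Hsd17b7, the keto-reductase of the same steps, had 281, 359, 313 and 633. Between populations 3 and 4 it was 2.02-fold higher, while no other member reached 2-fold there. Ebp, the sterol isomerase, had signals of 431, 684, 758 and 831. Sc5d, a desaturase, had 456, 696, 523 and 729, with population 3 below population 2. Dhcr7, which makes cholesterol from its last precursor, had 367, 756, 811 and 931 and was 2.06-fold higher in population 2 than in population 1. In all, 6 of the branch's 11 genes were at least 2-fold above population 1 in population 4, where 22.4% of genes were. Lss was 3.07-fold and Dhcr7 2.54-fold higher. After centring each array on its median, only Lss and Dhcr7 of the branch stayed at least 2-fold higher, where 14.4% of all genes were. Hsd17b7 was below the limit by its other probe sets above 100, at 1.79-fold and 1.84-fold.

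**Figure D1:**
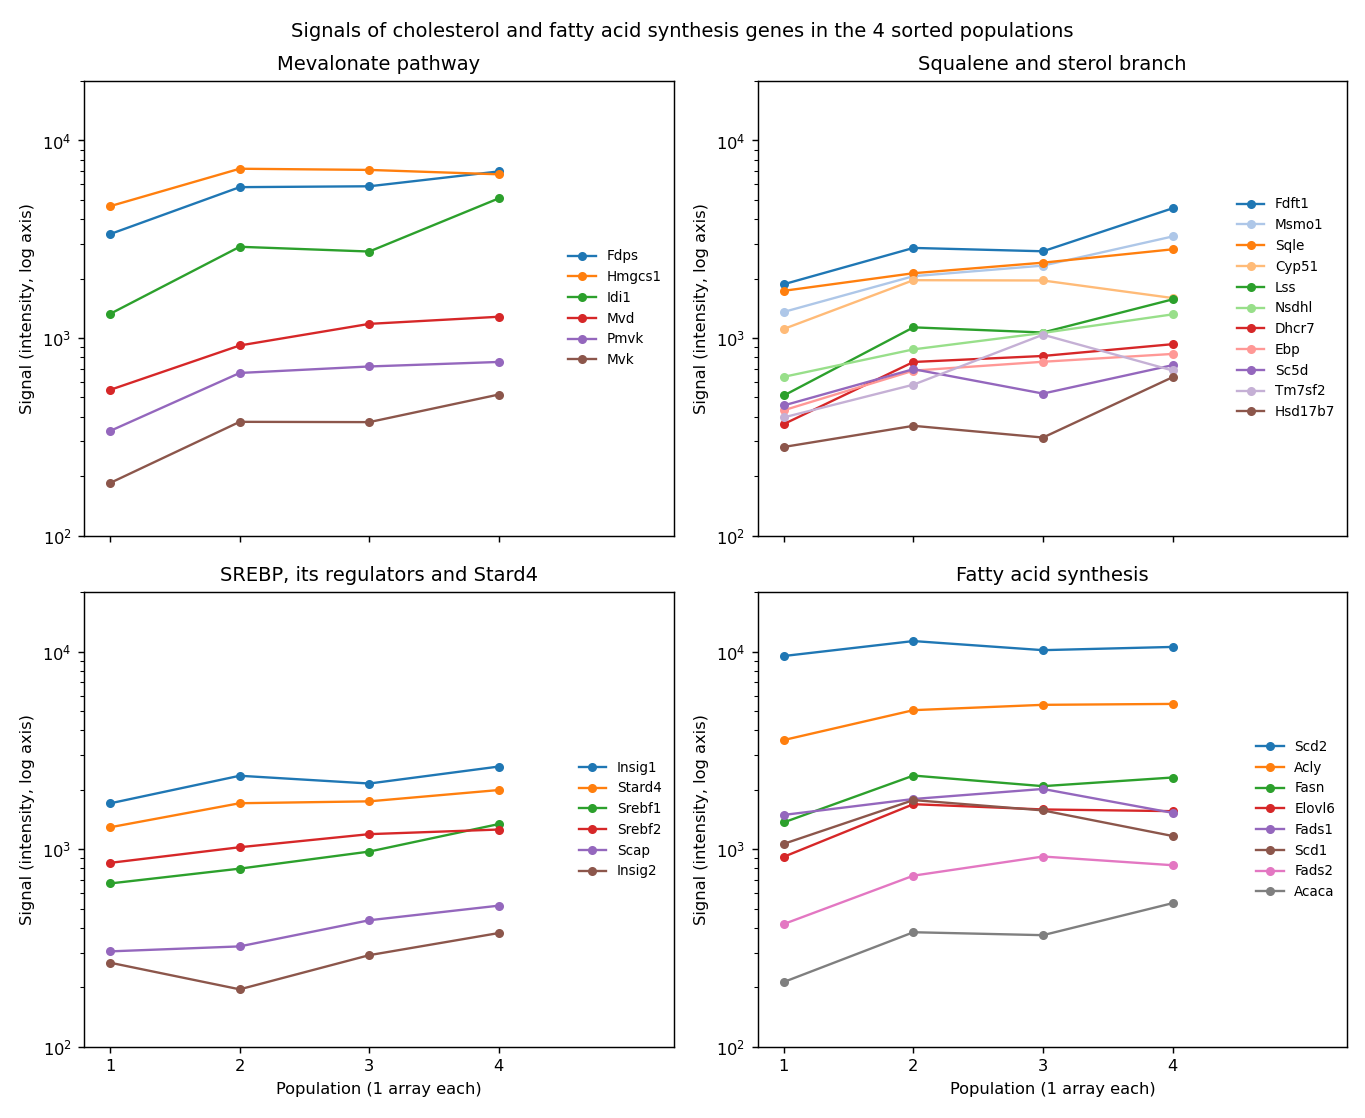
Signal (intensity, log axis) of 31 genes in populations 1 to 4, in 4 panels by role, with 1 array per population and so no error. Most lines climb from population 1 to 2 and run nearly level to population 3, and Insig2 is the 1 gene lower in population 2, at 195 against 266.

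Genes of fatty acid synthesis, too, were lowest in population 1, and from population 2 onwards their median was level. Their median log2 ratio over 8 genes was 0.76 for population 2 over 1, -0.07 for 3 over 2 and -0.01 for 4 over 3. Acly, which supplies cytosolic acetyl-CoA from citrate, had signals of 3573, 5061, 5385 and 5443. Acaca, which makes malonyl-CoA, had 213, 380.2, 367 and 533. It was the 1 gene of the 8 at least 2-fold above population 1 in population 4 (2.51-fold), where 22.4% of all genes were. Fasn, the fatty acid synthase, had 1369, 2361, 2087 and 2308. Elovl6, which extends palmitate, had 916, 1691, 1591 and 1559.5. For Fasn and Elovl6 the highest value lay in population 2, and populations 3 and 4 were at most 1.13-fold below it. Another probe set of Elovl6 had 450, 825, 769 and 882, highest in population 4.

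Of the 4 desaturases, by the probe sets used, Scd1 and Scd2 had their highest signal in population 2 and Fads1 and Fads2 in population 3. Other probe sets of Scd2 and Fads2 above 100 were all highest in population 4, and that of Scd1 in population 2. Scd1, a stearoyl-CoA desaturase, had signals of 1066, 1774, 1573 and 1167, so that population 4 was within 1.10-fold of population 1. Scd2, its paralog, had 9515, 11325.5, 10185 and 10576, a narrow range near the top of the array's signals, which reached 20126. Fads1, the delta-5 desaturase of polyunsaturated fatty acids, had 1492, 1797, 2019.9 and 1529. Fads2, the delta-6 desaturase, had 418, 735, 919 and 830.3, 1.98-fold higher in population 4 than in population 1 and just under the 2-fold limit. Its other probe sets above 100 gave 2.22-fold and 1.72-fold, the latter with the population 1 signal raised to 100. After centring each array on its median, Scd1, Scd2 and Fads1 lay below population 1 in population 4, and after quantile normalisation Scd1 and Fads1 did. Their direction at the end of the series thus depended on the scale. On the deposited scale, other probe sets gave log2 ratios for population 4 over 1 of 0.57 for Scd1, in place of 0.13, and of 0.57 and 0.51 for Scd2, in place of 0.15.

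The transcripts of the SREBP system moved less from population 1 to 2 than those of the enzymes. Over its 5 genes the median log2 ratio was 0.25 for population 2 over 1, 0.29 for 3 over 2 and 0.29 for 4 over 3. Srebf1 had signals of 671, 798, 973 and 1342, with a log2 ratio of 0.999 for population 4 over 1, just short of 2-fold. Srebf2 had 853, 1024, 1193 and 1259. Scap had 304, 322, 437 and 518. These 3 genes were higher at every step, with no large step between populations 1 and 2. Insig1 and Insig2, which both retain SCAP, went opposite ways at that step. Insig1, itself an SREBP target, had signals of 1708, 2356, 2152 and 2623. Insig2 had 266, 195, 291 and 377 and was the 1 member lower in population 2 than in population 1, with a log2 ratio of -0.45. Its other 2 probe sets gave log2 ratios of -0.57 and -0.39 there. Stard4, a soluble carrier that moves cholesterol between membranes, had signals of 1292, 1710.2, 1748 and 1995.

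Of the 31 members, 30 were higher in population 2 than in population 1, where 54.2% of all 9468 genes were. At least 1.5-fold, a limit chosen after the values were seen, 18 members were higher (58.1%), where 11% of all genes were. Among the 7104 genes above 100 in all populations, as the members were, 12.5% passed this limit. At least 2-fold, 4 members were higher, Mvk, Idi1, Lss and Dhcr7 (12.9%), where 2.92% of all genes were. No member was at least 2-fold lower, where 4.19% of genes were. The median over the 31 members was 0.61, beside 0.00 for all genes. It was 0.59 after centring, 0.55 after quantile normalisation and 0.50 with the mean over probe sets, with which 2 of 30 members were at least 2-fold higher, where 2.36% of genes were.

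From population 2 to 3, 17 members were higher, where 81% of all genes were. Tm7sf2, at 1.79-fold, was the 1 member at least 1.5-fold higher, where 14.7% of genes were. None was at least 2-fold higher or lower, where 3.11% and 0.253% of genes were. The members' median of 0.03 lay below that of all genes, 0.22. After centring the members' median was -0.28, beside -0.01 for all genes, and after quantile normalisation -0.13, beside 0.00. Under each, 5 members were higher, and the share of all genes higher was not counted on these scales. The cause of the shift of all genes at this step was not tested, and the members' median was near 0 on the deposited scale and below 0 on both others.

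From population 3 to 4, 24 members were higher, where 54% of all genes were, and the median was 0.20 beside 0.06. At least 1.5-fold, Idi1, Fdft1 and Hsd17b7 were higher (9.68%), where 20.1% of genes were. At least 2-fold, 1 member was higher, where 7.94% of genes were, and 0 were lower, where 12.2% were. These shares of members lay below those of all genes. The lowest ratio was that of Tm7sf2, at -0.60.

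**Figure D2:**
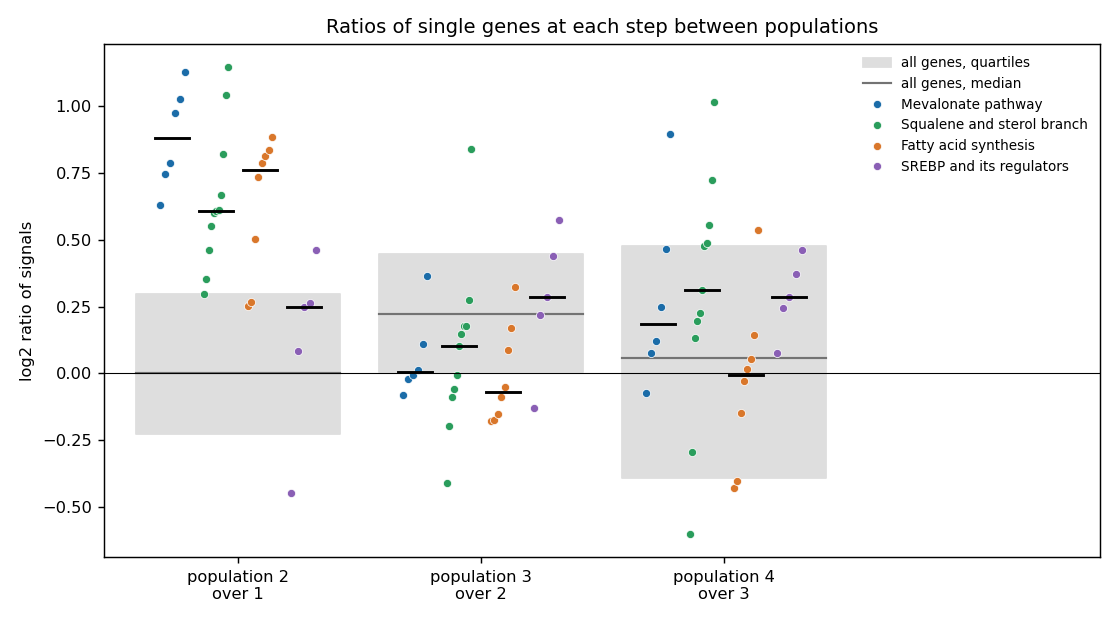
Log2 ratio of signals for single genes (points, coloured by role) at each step between populations, with the median of each role (black bars) and the quartiles and median of all 9468 genes with a signal above 100 (grey). Stard4 is not drawn. At the step from population 1 to 2 the median of the mevalonate genes is 0.88 and the upper quartile of all genes 0.30.

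Across the whole range, from population 1 to 4, all 31 members were higher, where 65.8% of genes were. At least 1.5-fold, 24 were higher (77.4%), where 39.6% of genes were, and at least 2-fold 12 were (38.7%), where 22.4% were. The 12 were Mvk, Pmvk, Mvd, Idi1, Fdps, Fdft1, Lss, Msmo1, Nsdhl, Hsd17b7, Dhcr7 and Acaca. No member was at least 2-fold lower, where 12.9% of genes were. The median was 0.79, beside 0.36 for all genes. Among the 7104 genes above 100 in all populations, 69.7% were higher, 42.9% at least 1.5-fold and 23.6% at least 2-fold. Their median was 0.45. After centring, 5 members were at least 2-fold higher and the median was 0.49, where 14.4% of genes were at least 2-fold higher. For population 2 over 1 alone, the members' median was 0.61.

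Population 1 held the lowest signal for 30 of 31 members, where it did for 45.5% of all genes. Population 4 held the highest for 22, where it did for 51.8% of genes. Another 6 members were highest in population 2, where 5.51% of genes were, namely Hmgcs1, Cyp51, Fasn, Elovl6, Scd1 and Scd2. The remaining 3, Tm7sf2, Fads1 and Fads2, were highest in population 3, where 26.3% of genes were. These counts depend on the probe set used. By other probe sets Cyp51, Elovl6, Scd2 and Fads2 were highest in population 4. Mvk, Acly and Stard4, counted as highest in population 4, were highest in population 3 by another probe set. The lowest population depended on it as well. Both other probe sets of Hsd17b7 above 100 were lowest in population 3, and another of Hmgcs1 was lowest in population 4. After centring, 13 members were highest in population 2, where 15.9% of genes were, and 25 were lowest in population 1, where 34.4% were. Population 4 then held the highest signal for 16 members, where it did for 45.3% of genes. After quantile normalisation it did for 17 members and for 47.3% of genes. On both scales the share of members highest in population 4 was thus nearer to that of all genes.

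Other probe sets gave a repeat measurement within the same arrays. For 17 members 27 further probe sets had a signal above 100 in at least 1 population. In population 2 over 1, 24 of them were higher, 2 lower and 1 equal, and the lower ones were both those of Insig2. They differed from the probe set used by a median of 0.12 in the log2 ratio, where 6780 such pairs over all genes differed by 0.19. The median log2 ratio of the 27 was 0.38, beside 0.61 for the 31 members by the probe set used. In population 4 over 1, 24 of the 27 were higher, 1 was lower and 2 were equal, with a median difference of 0.23. Their median log2 ratio was 0.65, beside 0.79 for the 31 members. The 27 cover only 17 members, so these medians are not over the same genes. The second probe set of Idi1 gave 893, 2117, 2283 and 3896, and a further one of Lss 337, 677, 867 and 1111. For Mvk the other probe set gave a log2 ratio of 0.25 for population 2 over 1 in place of 1.03, and of 0.32 for population 4 over 1 in place of 1.49, so that neither 2-fold difference of Mvk was found by it. Cyp51 differed the other way, with 1.43 in place of 0.52. A dim probe set each of Lss and Cyp51 reached signals of at most 100.2 and 103, so that raising lower signals to 100 set its ratios at or near 0 and they carry no information. That of Lss is counted among the 24 higher for population 2 over 1, and that of Cyp51 as the 1 equal, and both are the 2 equal for population 4 over 1. By its 3 other probe sets above 100, Hmgcs1 had ratios of -0.07, 0.12 and 0.33 in place of 0.54, so the value for population 4 over 1 was largest by the probe set used and had the other sign by 1 of the 3. For population 2 over 1, these probe sets gave 0.30 to 0.32 in place of 0.63.

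**Figure D3:**
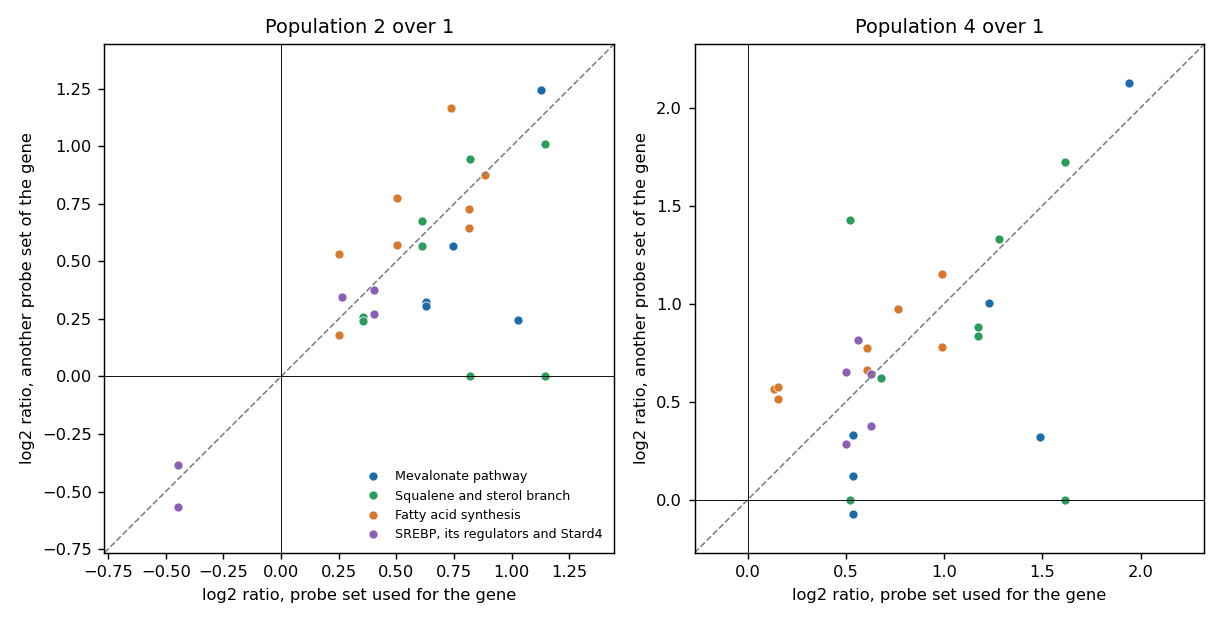
Log2 ratio of each of 27 other probe sets above 100 (vertical axis) against that of the probe set used for the same gene (horizontal axis), for population 2 over 1 (left) and population 4 over 1 (right). Colours mark the role, and points on the dashed line are equal. The points of Insig2 lie below 0 on both axes on the left.

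Related genes were listed beside the members. Of 15 other genes of lipid synthesis above 100, 1 was at least 2-fold above population 1 in population 2 and 0 were lower, with a median log2 ratio of 0.46. The 1 was Acss2, which makes acetyl-CoA from acetate, with signals of 99.1, 266, 434 and 499.7. It was at least 5.00-fold above population 1 in population 4, a lower bound because signals under 100 were raised to 100. Lbr, a lamin B receptor that is also a sterol reductase, had 2669.8, 4206, 4498 and 6762. Gpam, the first enzyme of glycerolipid synthesis, had 395, 479.6, 547 and 1004. Mid1ip1, an activator of acetyl-CoA carboxylase, had 612, 771, 735 and 266 and was 2.29-fold lower in population 4 than in population 1.

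Of 9 genes of the isoprenoid branch, which turns farnesyl diphosphate to prenyl groups, ubiquinone and dolichol, 0 differed 2-fold between populations 1 and 2, and the median was 0.10. Of all genes, 2.92% were at least 2-fold higher at this step and 4.19% lower. Coq2, of ubiquinone synthesis, had signals of 358, 525, 605 and 771. It was the 1 gene of the 9 at least 2-fold above population 1 in population 4, where 22.4% of all genes were. Ggps1, which makes geranylgeranyl diphosphate, had 235, 252, 352 and 411, Dolk, the dolichol kinase, 206, 244, 255 and 358, and Fntb, a farnesyltransferase subunit, 257, 304, 329.7 and 152. The 5 genes of SREBP cleavage and of endoplasmic reticulum degradation had a median of 0.09 for population 2 over 1 and 0.49 for 3 over 2. Mbtps1 and Mbtps2, the proteases that release SREBP, had 1262, 1482, 2184 and 2223, and 443, 538, 502 and 920.3. Rnf139, a ubiquitin ligase, had 629, 498, 785 and 1242, and Erlin2, of the membrane complex for INSIG-dependent degradation, 458, 489, 531 and 383. At the step from population 1 to 2, both lists thus had a median nearer to that of all genes, 0.00, than to that of the members, 0.61.

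Genes listed for sterol efflux and storage ran another way by their median, and Soat1 of this list was not measured. Over 9 genes above 100 the median log2 ratio was -0.39 for population 2 over 1, 0.48 for 3 over 2 and -0.45 for 4 over 3. Abca1, the exporter that loads cholesterol on lipoproteins, had signals of 2156, 395, 1324 and 114. It was 5.46-fold lower in population 2 than in population 1 and 18.9-fold lower in population 4 than in population 1. Abcg1, of the same list, had 301, 59.5, 82.8 and 536, and was 1.78-fold higher in population 4 than in population 1. Lipa, the lysosomal acid lipase, had 983, 612, 987 and 223, and Npc1, which exports lysosomal cholesterol, 611, 681, 769 and 257. Mylip, a ubiquitin ligase induced by sterol-sensing LXR receptors, had 675, 583, 2030.5 and 1643. From population 1 to 4, 3 of the 9 genes were at least 2-fold lower, where 12.9% of all genes were. At least 2-fold higher was 1, where 22.4% of all genes were.

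Other markers moved at the same steps. Of 10 proliferation markers above 100, 9 were at least 2-fold above population 1 in population 2, where 2.92% of all genes were. The log2 ratios of the 10 markers had a median of 1.45 at that step. The medians were -0.18 for 3 over 2 and 1.24 for 4 over 3. Mki67 had signals of 836, 2239.6, 2208 and 5853.5 and Ccna2, cyclin A2, 419, 1534, 1378 and 3187. Top2a, topoisomerase II alpha, had 894, 2829, 2465 and 5455, and Aurka, a mitotic kinase, 304, 1000.3, 874 and 2938. Their summed signal over 11 measured genes was 10317, 23461, 20960.1 and 43604 in populations 1 to 4. The part of proliferation in the members' differences was not tested.

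OP9 cells can turn into adipocytes, which make much lipid. Of 7 measured adipocyte markers, Cidec, Lep, Retn, Cebpa and Pparg were at or below 100 in every population. Adipoq had signals of 147, 103, 97.5 and 57.3 and Lpl 363, 116, 256 and 289, and the summed signal was 590, 279, 413 and 419. Of 12 stromal markers 6, among them Col1a1 and Pdgfra, did not exceed 100 anywhere, and the summed signal was 3522, 2157, 1951 and 1584. Both sums were highest in population 1, where Lpl made up most of the adipocyte sum. Of the stromal markers above 100, Pdgfrb was highest in population 2, at 271 against 250 in population 1, and the others in population 1. The summed signal of 8 endothelial markers was 26234, 17576, 20999 and 1806, and that of 9 erythroid and megakaryocytic markers 938, 1546, 7400.2 and 50387. For 8 myeloid markers it was 294, 444, 1139 and 1245. The part of these cell types in the members' differences was not tested.

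**Figure D4:**
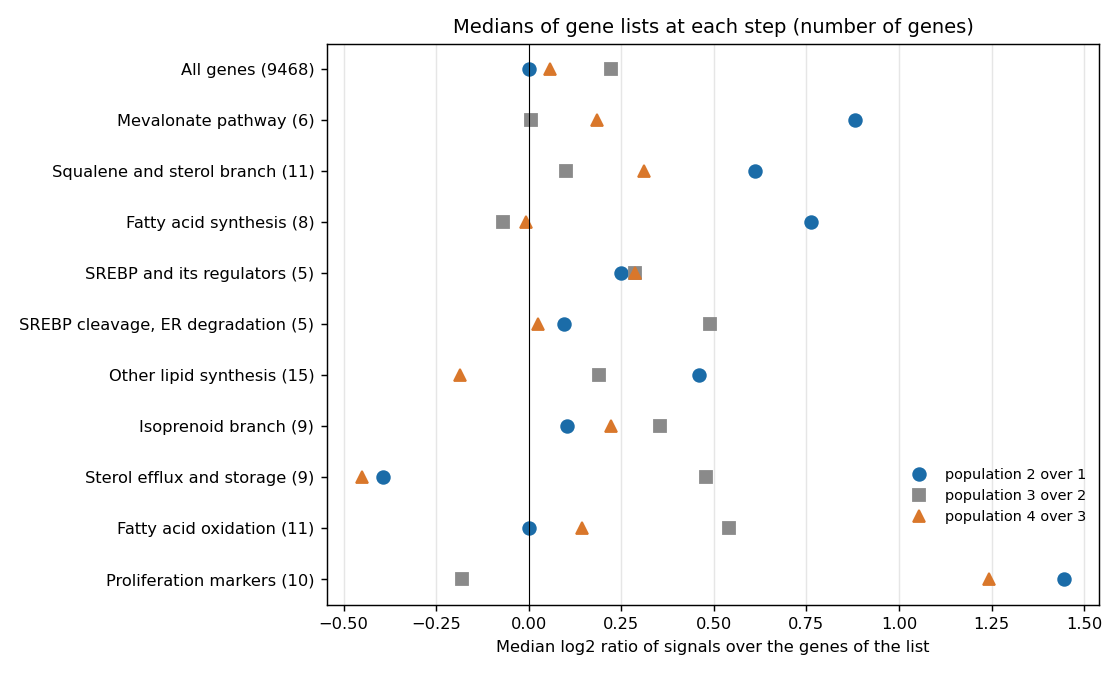
Median log2 ratio of signals over the genes above 100 of each list (number in brackets) for population 2 over 1 (circles), 3 over 2 (squares) and 4 over 3 (triangles), with 1 array per population and so no error. The 3 lists of synthesis enzymes and the proliferation markers lie furthest right at the step from population 1 to 2, at 0.61 to 0.88 and 1.45.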

How the data were processed

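Linear intensity values of probe sets were deposited for Affymetrix mouse genome arrays, 1 for each of 4 sorted populations. The submitters' processing notes name MAS5 and GCOS 1.3, and how the arrays were scaled is not given in the sources used here, so that a shift of a whole array cannot be told apart from a change in most genes. The second sample set on Agilent arrays was not used here.

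Of 45101 probe sets, 34958 with 1 symbol were kept, and the others, 932 with several symbols and 9211 unnamed in the platform annotation, were dropped. Symbols were updated through gene records of GRCm38.p6. Each of 18194 genes was represented by the probe set whose log2 signal averaged highest, with signals under 1 set to 1. Ratios used signals raised to 100 where lower, and genes above 100 in at least 1 population were counted. The arrays' number limits the precision, and no test was made. All 32 listed genes are named, with up to 4 genes of each related list by the size of the ratio of population 4 over 1. Abcg1 and Soat1 are named besides. Members and lists were chosen with earlier results of these data known. Markers named as at or below 100 and Itga2b serve as checks. The alternatives were centring each array on its median log2 signal over genes above 100, quantile normalisation, averaging the probe sets of a gene, excluding shared probe sets (suffix _s, _x or _a), floors of 50 and 200, and no minimum. The 1.5-fold limit and the background of genes above 100 in all populations were chosen after seeing the data. Python 3.11.15, numpy 2.4.6, pandas 2.3.3 and matplotlib 3.10.9 were used, and the computation was tested on simulated data.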

Additional observations from a re-analysis of the deposited data

How the results depend on the processing

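Scales between arrays mattered most. After centring on the array median, 5 members were at least 2-fold above population 1 in population 4 in place of 12. At least 1.5-fold higher were 15 in place of 24, and the median log2 ratio was 0.49 in place of 0.79. The median for population 3 over 2 was -0.28, and 0 members were at least 1.5-fold higher there, where 4.79% of all genes were. Highest in population 2 were 13 members. After quantile normalisation the values for population 4 over 1 were 5, 15 and 0.50. There 15.1% of all genes were at least 2-fold and 29.2% at least 1.5-fold higher (14.4% and 28.1% after centring). In 3 over 2, 0 members were at least 1.5-fold higher, where 4.82% of all genes were, and 12 members were highest in population 2. With the mean over probe sets, 7 of 30 members were at least 2-fold above population 1 in population 4, where 19.7% of all genes were, and 2 were so in population 2, where 2.36% were. The other 107 of 120 counts and medians stayed close to those given, within 1.5 times for counts and within the median difference between probe sets of a gene for medians. Of 213 log2 ratios of single members for population 4 over 1, 56 moved by more than that difference, among them all 31 after centring and 13 after quantile normalisation. Centring moves the ratio of every member by the same amount, so its 31 were not separate observations. Without shared probe sets 28 members were left, 27 of them higher in population 4 than in population 1, and Hmgcs1 was lower by its probe set. The cause of these shifts was not tested. No paired analysis was possible because each population has 1 array, and no array could be left out.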

Other observations

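Genes of fatty acid uptake and oxidation, the route that breaks fatty acids down, differed from those of synthesis in where their signals changed. Over 11 genes above 100 the median log2 ratio was 0.00 for population 2 over 1, 0.54 for 3 over 2 and 0.14 for 4 over 3. From population 1 to 4, 5 were at least 2-fold higher and 0 lower, with a median of 0.99. Of all genes, 22.4% were at least 2-fold higher and 12.9% lower. Cpt2, which completes the import of fatty acids into mitochondria, had signals of 107, 151, 237 and 351 in populations 1 to 4. Acadvl, the very long chain acyl-CoA dehydrogenase, had 173, 129, 248 and 423. Etfa and Etfb, subunits of the flavoprotein that takes electrons from these dehydrogenases, had 687, 929, 1185 and 1843, and 574, 668, 880.3 and 1399. Whether synthesis and oxidation genes differ was not tested, with 1 array per population.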
